A study of Saccharomyces cerevisiae with 32 samples.

Results

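The comparison is of Spt3 with TBP, the TATA-binding protein, in budding yeast (Saccharomyces cerevisiae) after a brief heat shock. It rests on 8 of the 32 arrays of the study, the 4 that carried chromatin immunoprecipitated through HA-tagged Spt3 and the 4 that carried chromatin immunoprecipitated through HA-tagged TBP. The members were taken by their labels alone. For each of 6392 intergenic regions the heat effect of Spt3, the log2 ratio of heat shocked over mock treated cells, was set against that of TBP, and their difference (Spt3 minus TBP) is the quantity reported.

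On 2-colour arrays of intergenic regions the study compared immunoprecipitated DNA from heat shocked and from mock treated cells, for 5 HA-tagged factors and a strain labelled Null, each on 4 arrays, and another 4 arrays compared input DNA of the HA-TAF1 and HA-Spt3 strains. RNA of the strain labelled Null (BY4741) was compared between heat shocked and mock treated cells on 2 arrays, and between mock treated samples on 2 more. Cultures of every strain were grown in YPD at 25 °C to an OD600 near 0.8. Heat shocked cultures received an equal volume of heated medium and stood at 37 °C for 15 min, mock treated cultures received medium at 25 °C, and both were then fixed with 1% formaldehyde for 2 h at 25 °C, per the labels. Besides the tag, the labels give no genotype for the HA-Spt3 and HA-TBP strains. They do not say whether the arrays came from separate cultures. The p-values therefore measure the spread between arrays, pooled over all 28 arrays of intergenic regions, which may be technical.

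TBP binds core promoters and is needed for transcription by all nuclear RNA polymerases. It reaches RNA polymerase II promoters mainly through TFIID, in which TAF1 is a scaffold subunit, or through SAGA, in which Spt3 is a subunit known to contact TBP. In yeast, SAGA is classically linked to stress-induced genes, and TFIID to housekeeping genes such as those for ribosomes. Heat shock is known to induce chaperone and general stress genes and to repress ribosome production for a time.

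The deposited files do not state which channel was the numerator. Values are given in the likely direction, in which TBP at chaperone promoters ran with the RNA as read here. Under the other reading the sign of every ChIP effect and difference below reverses, as does that of its correlation with RNA. Sizes, total counts, RNA changes and correlations between ChIP effects stay. The RNA ratios were read in the opposite channel order to the ChIP ratios, which is also an assumption. If they were read the other way, the sign of every RNA change below would reverse. A further assumption is that the deposited ratios had not already been turned by condition. The correlations between arrays across regions differed between the factors. As deposited, pairs of opposite channel order correlated at 0.0287 to 0.206 for Spt3 and at -0.287 to 0.0177 for TBP. Once turned, they correlated at -0.206 to -0.0287 for Spt3 and at -0.0177 to 0.287 for TBP. With the fitted channel effect also removed, they correlated at 0.139 to 0.234 for Spt3 and at 0.188 to 0.327 for TBP. The same-order Spt3 pair B and D then stood at -0.0248. That channel effect was fitted to these same arrays after turning, so values with it removed do not test the turning. Both factors had 2 arrays of each channel order, so a channel effect cancels in their difference where all 8 arrays have a value. Every effect is relative to its array's median, so a change shared by most regions does not appear. The 8 arrays held 6748 to 6953 values each. The spread of the centred ratios over regions, as an SD per array, was 0.484 ± 0.118 for Spt3 and 0.402 ± 0.0673 for TBP (SD, n = 4 each), which did not differ in a two-sided exact permutation test (p = 0.314, where the smallest possible was 0.0286).

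The heat effect of Spt3 differed from that of TBP at 86 of the 6392 regions, 1.35% (limma, Benjamini-Hochberg adjusted p under 0.05 over all regions). Spt3 was higher at 54 (0.845%) and lower at 32 (0.501%). At the 54 the TBP effects were below 0 and most Spt3 effects lay closer to 0, and 17 of the 54 held promoters of ribosome biogenesis genes. At the 32 the TBP effects were above 0 and the Spt3 effects lay between -0.29 and 0.14. At an unadjusted p under 0.05, 827 regions (12.9%) differed, with Spt3 higher at 426 (6.66%) and lower at 401 (6.27%). The median standard error of the difference was 0.17, and the quartiles of the difference over all regions were -0.14 and 0.15. The count depended on the processing. It rose to 1130 with array weights, 209 without the 2 wider Null arrays, 188 without all 4 Null arrays (both chosen after the data were seen) and 173 with arrays scaled to equal spread. It was 96 without TBP replicate C and 70 without Spt3 B, and fell to 24 without TBP B, 29 without Spt3 E, 36 without TBP A, 36 without TBP D, 46 without Spt3 C and 49 without Spt3 D, and 21 of the 86 regions kept their call in all 8 of these fits. It was 25 with only the 8 Spt3 and TBP arrays in the fit, where 13 of the 86 regions kept their call. It was 0 without centring and 2 if the ratios had been turned before deposit.

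The 2 sides of the difference can be read separately. Over the 54 regions with Spt3 higher, the median effect was 0.19 for Spt3 and -0.55 for TBP. The TBP effect was below 0 at all 54 and called lower at 43, where 256 of all regions (4.01%) were called lower for TBP. The Spt3 effect was called higher at 13 of the 54, where 248 of all regions (3.88%) were called higher for Spt3, and was not called at the other 41. Over the 32 regions with Spt3 lower, the median effect was -0.05 for Spt3 and 0.43 for TBP. TBP was called higher at 29 of these, against 534 of all regions (8.35%), and Spt3 was called lower at 2, GRR1 and PHR1, against 113 of all regions (1.77%). These shares are descriptions, because the regions were selected on the difference between the same effects. The TBP effect was the larger in size at 41 of the 54 and at 29 of the 32.

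**Figure D1:**
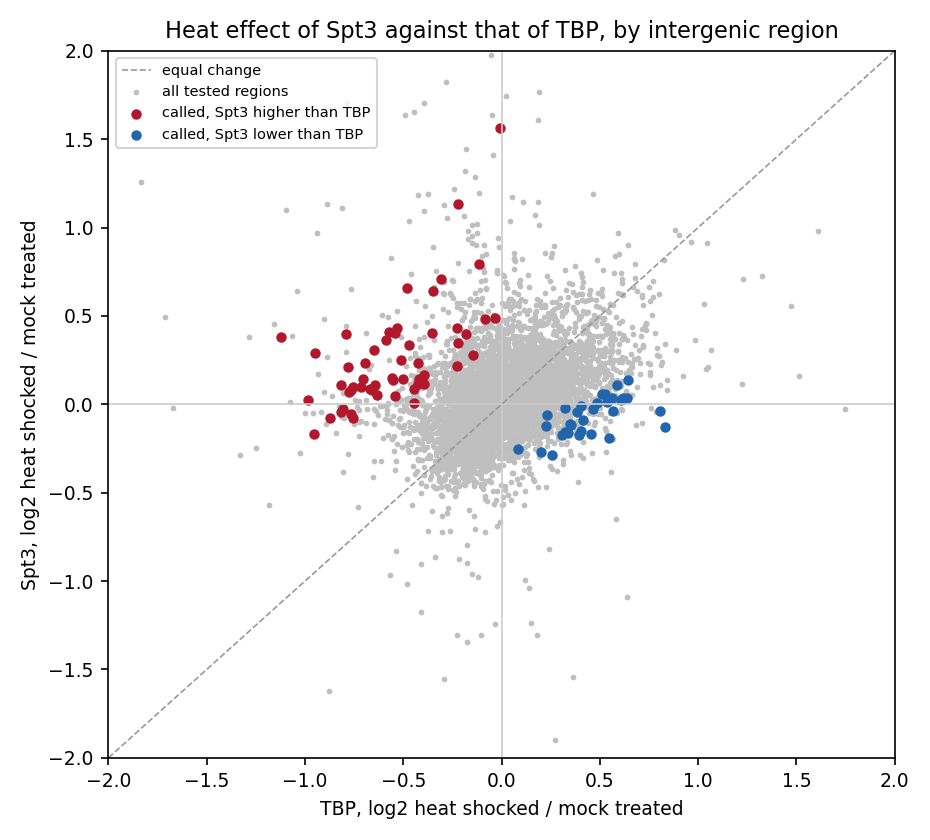
Each point is an intergenic region, with the log2 heat effect of TBP on the horizontal axis and that of Spt3 on the vertical axis; the dashed line marks equal change. Red points (54) are regions called higher for Spt3 than TBP and all lie left of 0 for TBP, blue points (32) are called lower and all lie right of 0. The 8 regions beyond 2 in size for either effect are not drawn.

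The arrays of the 2 factors did not overlap at 764 of the 6220 regions with a value on all 8 (12.3%), with Spt3 higher at 363 (5.84%) and lower at 401 (6.45%). Among the called regions with a value on all 8 arrays, this held for 50 of 52 with Spt3 higher and for 32 of 32 with Spt3 lower. Those regions were called on the difference between the same arrays, so the lack of overlap is a description and adds no support. Of the 86, 8 differed by at least 2-fold, all with Spt3 higher. The sizes ran from 0.43 to 1.57 where Spt3 was higher, and from 0.29 to 0.96 where it was lower.

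Ribosome biogenesis genes encode the factors that process ribosomal RNA and assemble the subunits. Of 98 regions that hold their promoters, 17 were called with Spt3 higher than TBP and 0 with Spt3 lower by limma. Over all regions the shares called were 0.845% and 0.501%. At an unadjusted p under 0.05 the counts for the list were 49 and 2, beside 6.66% and 6.27% of all regions. The median difference over the list was 0.45, beside -0.0042 over all regions, and it was above 0 at 88 of the 98 (89.8%, beside 49.2% of all regions). Without centring the median of all regions moved to -0.37 and that of the list to 0.08, and if the ratios had been turned before deposit the list's median was -0.06. TBP was called lower at 47 of the 98 and TAF1 at 63. Over all regions 4.01% were called lower for TBP and 554 (8.67%) for TAF1. Spt3 was called at 0 by limma, with 7 of the 98 higher and 4 lower at an unadjusted p under 0.05, where 11.3% of all regions were higher and 9.65% lower. The list's median effect on each array was 0.04, -0.03, 0.04 and 0.02 for Spt3 replicates B, C, D and E, and -0.53, -0.48, -0.25 and -0.37 for TBP replicates A, B, C and D. All 4 TBP arrays thus lay below all 4 Spt3 arrays, and the Spt3 arrays lay close to 0. The Null arrays had a median of 0.05 over the list. The median RNA change, read only at the list's regions of 1 promoter, was -2.02.

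The region between NSA2 and LCP5 had the largest difference among called regions on all 8 arrays. NSA2 acts in assembly of the large subunit, and LCP5 in assembly of the small subunit. Spt3 stood at 1.26, -0.04, 0.27 and 0.02 in replicates B to E, and TBP at -1.10, -1.43, -0.87 and -1.08 in replicates A to D. The groups did not overlap, although replicate B of Spt3 stood well above the other Spt3 arrays. The difference was 1.50 ± 0.24 (SE, adjusted p = 0.00354), and it was at least 1.19 whichever of the 8 arrays was left out, with the call kept.

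The region between GCD10, which encodes a subunit of a tRNA methyltransferase, and NOP2, which encodes a methyltransferase of the large ribosomal RNA, had narrow ranges in both groups. Spt3 stood at 0.23, -0.06, -0.06 and -0.01, and TBP at -1.06, -1.09, -0.90 and -0.90. Spt3 thus lay near 0 on replicates C, D and E and higher on replicate B, while TBP was about equally low on all 4. The difference was 1.01 ± 0.18 (adjusted p = 0.00572).

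MAK16, a factor of large subunit assembly, differed by 1.24 ± 0.31 (adjusted p = 0.0452). Here Spt3 stood at -0.33, -0.24, 1.76 and -0.03, and TBP at -1.04, -0.97, -0.81 and -0.98. The groups did not overlap, but replicate D of Spt3 alone was far above 0. Without that array the difference was 0.72, and the call was lost in 6 of the 8 fits that left out 1 array. At NOG2, a GTPase of large subunit assembly, TBP was lowest of the named regions at -1.33, Spt3 was at -0.29, and the difference of 1.04 ± 0.30 did not pass the threshold (adjusted p = 0.0946).

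DBP8, an RNA helicase of small subunit maturation, differed by 0.99 ± 0.19 (adjusted p = 0.00816). Spt3 stood at 0.88, 0.09, 0.08 and -0.20, and TBP at -0.89, -0.75, -0.53 and -0.95, so that the groups were apart with replicate B of Spt3 the highest. SDA1, which acts in export of the large subunit, differed by 0.92 ± 0.16 (adjusted p = 0.0041), with TBP at -0.82 and Spt3 at 0.11. Apart from the region of RPC25 and LTV1, which is described with the RNA polymerases, the list's other called members ranged from 0.51 at PWP2, a component of the small subunit processome, to 0.86 at the region between BMT2 and the helicase gene MAK5. They included NOP4, NMD3, RCL1, DBP2, DBP3 and KRE33, and the regions of NOG1, NOP1 and BRX1. Of these others, the region of BMT2 and MAK5 was the 1 to keep its call whichever array was left out. The lowest member on all 8 arrays was 1 of the regions of ERB1, at -0.36 ± 0.15, which was not called (adjusted p = 0.264).

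**Figure D2:**
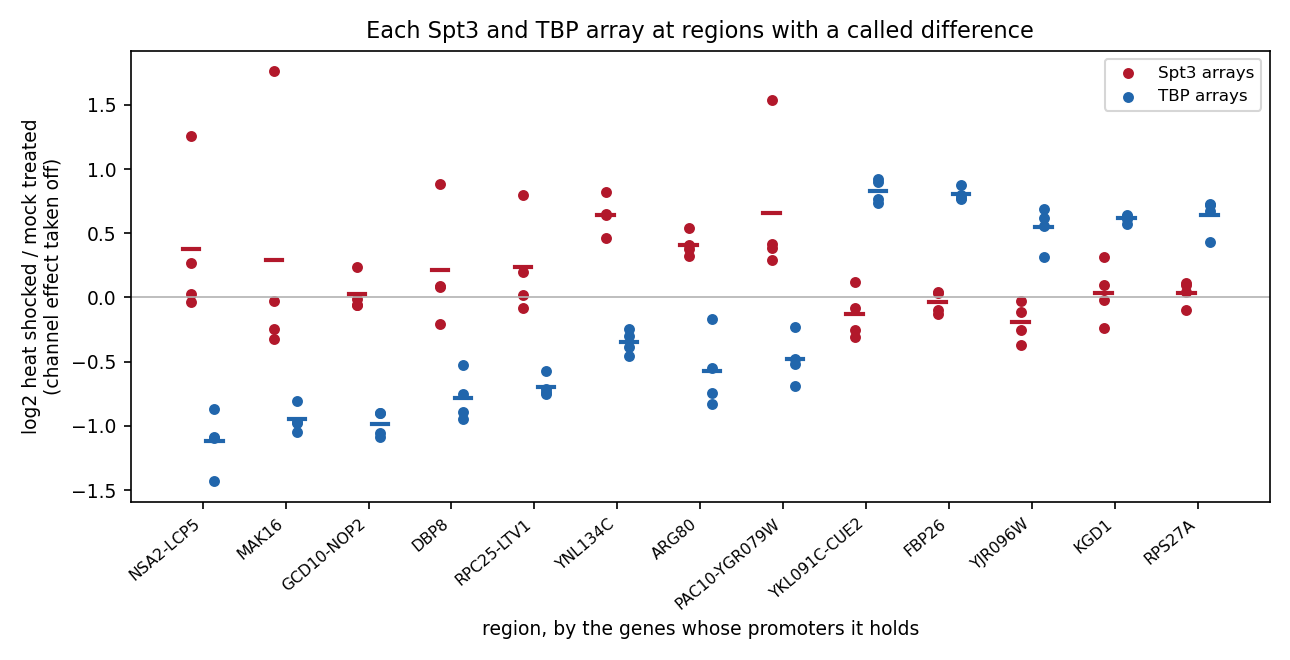
Log2 heat effect on each Spt3 array (red) and TBP array (blue), after the fitted channel effect was taken off, at 13 called regions; horizontal bars are the means of 4 arrays. At the first 8 regions every TBP array lies below 0, and at the last 5 every TBP array lies above 0 while the Spt3 means stay between -0.19 and 0.04.

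RNA polymerases I and III make ribosomal RNA, tRNA and other short RNAs. Of 37 regions of their subunit and factor genes, 3 were called with Spt3 higher and 0 with Spt3 lower. Over all regions these shares were 0.845% and 0.501%. At an unadjusted p under 0.05, 8 were higher and 1 lower, beside 6.66% and 6.27% of all regions. The median difference was 0.12 (-0.24 without centring, beside -0.37 over all regions). The region between RPC25, a subunit of RNA polymerase III, and LTV1, a factor of small subunit export, differed by 0.93 ± 0.16 (adjusted p = 0.0041). Its Spt3 arrays stood at 0.80, 0.02, -0.08 and 0.20 and its TBP arrays at -0.75, -0.57, -0.74 and -0.71, without overlap. The region between RPA43 and RPA190, both subunits of RNA polymerase I, differed by 0.78 ± 0.18 (adjusted p = 0.0288), with Spt3 at -0.02 and TBP at -0.81, and lost its call in 6 of the 8 fits that left out 1 array. Translation factors had a median difference of 0.25 over 38 regions (-0.12 without centring), of which 31 were above 0, beside 49.2% of all regions. At an unadjusted p under 0.05, 6 were higher and 0 lower. The 1 called was the region of GCD10 and NOP2, which is also in the ribosome biogenesis list.

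Regions called with Spt3 higher outside the lists included further genes of RNA processing and modification, which are named here after their values were seen. MTR4, the helicase that works with the nuclear exosome, differed by 0.84 ± 0.13 (adjusted p = 0.00314). Its Spt3 arrays stood at -0.09, 0.19, 0.01 and 0.17 and its TBP arrays at -0.74, -0.80, -0.84 and -0.73, each group within a narrow range and far apart. RNT1, the RNase III that cuts precursors of ribosomal RNA, differed by 1.02 ± 0.18 (adjusted p = 0.00697). There the Spt3 effect of 0.71 was itself called higher (adjusted p = 0.00254), the TBP effect of -0.31 was not called, and the Null effect was 0.50.

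TYW1 and NCS6, which modify bases of tRNA, differed by 0.95 ± 0.22 (adjusted p = 0.0288) and 0.96 ± 0.20 (adjusted p = 0.0139). Of the 8 fits that left out 1 array, TYW1 lost its call in 6 and NCS6 in 1. The purine salvage genes HPT1 and AAH1 differed by 0.85 ± 0.12 (adjusted p = 0.00114) and 0.80 ± 0.18 (adjusted p = 0.0288), with TBP at -0.70 and -0.88, and AAH1 lost its call in 5 of those 8 fits. At HPT1 the TAF1 effect was only -0.11 and not called. ATC1 differed by 1.19 ± 0.30 (adjusted p = 0.0471) and lost its call in 7 of those 8 fits, and UPA2 differed by 0.95 ± 0.16 (adjusted p = 0.0041) and kept it in all 8.

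At 3 regions the effects of Spt3 and TBP were both called and ran in opposite directions, whereas at 127 both were called in the same direction, 101 higher and 26 lower. YNL134C, a gene of the dehydrogenase family, had the lowest adjusted p of the 3. Spt3 stood at 0.46, 0.64, 0.65 and 0.82, and TBP at -0.25, -0.46, -0.38 and -0.30. Every Spt3 array was above 0 and every TBP array below it, and the difference was 0.99 ± 0.13 (adjusted p = 0.00114). The RNA of YNL134C rose by 1.72 ± 0.17 on the log2 scale (SE, limma, adjusted p = 0.000428 from the 2 heat and 2 mock against mock RNA arrays), the TAF1 effect was 0.30 and the Null effect was 0.01. Of the 30 regions with Spt3 higher that border 1 promoter and have an RNA value, 28 had RNA below 0, and the other 2 were YNL134C and PEX25. Over all regions of 1 promoter the median RNA change was 0.02.

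ARG80, a regulator of arginine metabolism, had Spt3 at 0.54, 0.41, 0.32 and 0.37, and TBP at -0.55, -0.83, -0.17 and -0.74. The difference was 0.98 ± 0.17 (adjusted p = 0.0041), and the region lies next to a tRNA gene. The region between PAC10, a subunit of the chaperone prefoldin, and YGR079W had Spt3 at 1.54, 0.41, 0.38 and 0.29, and TBP at -0.23, -0.69, -0.48 and -0.52. Both groups kept to their side of 0, and replicate B of Spt3 was again the highest. The difference was 1.14 ± 0.21 (adjusted p = 0.00732), with a lowest value of 0.83 when 1 array was left out.

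The largest difference of all 86, at 1.57 ± 0.38 (adjusted p = 0.0429), was downstream of the histone H4 gene HHF2, between convergent genes, and had only 3 Spt3 arrays. They stood at 1.79, 2.79 and 0.12, while TBP stood at 0.17, -0.09, 0.14 and -0.25. The Spt3 arrays were widely spread, 1 of them lay within the range of TBP, and the call was lost in each of the 5 fits that left out 1 array and could test the region. Of 6 regions of histone gene promoters, 1 was called with Spt3 higher, at 0.56 ± 0.10 (adjusted p = 0.00732), which lies between the linker histone gene HHO1 and NAN1, a gene of the small subunit processome. Over all regions 0.845% were called with Spt3 higher. At an unadjusted p under 0.05, 2 of the 6 were higher and 0 lower, beside 6.66% and 6.27% of all regions.

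Where Spt3 was lower than TBP, the region between YKL091C, which encodes a Sec14-like protein, and CUE2, an endonuclease that cuts messenger RNA at stalled ribosomes, had the largest difference, -0.96 ± 0.21 (adjusted p = 0.0238). Spt3 stood at 0.12, -0.08, -0.25 and -0.31, and TBP at 0.76, 0.90, 0.92 and 0.73. The groups did not overlap. The call was lost in 6 of the 8 fits that left out 1 array, with values from -1.05 to -0.90.

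FBP26, fructose-2,6-bisphosphatase of carbohydrate metabolism, differed by -0.84 ± 0.15 (adjusted p = 0.00607) and kept its call in all 8 of those fits. Spt3 stood at -0.13, 0.03, 0.04 and -0.10, and TBP at 0.77, 0.88, 0.80 and 0.77. The TBP arrays were nearly equal and far above the Spt3 arrays, which lay about 0, and the RNA of FBP26 was higher by 1.03 on the log2 scale. YJR096W, a member of the aldo-keto reductase family, differed by -0.74 ± 0.15 (adjusted p = 0.0149), with TBP at 0.55, Spt3 at -0.19 and an RNA change of 2.30.

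Further regions with Spt3 lower are named by the same rule or after their values were seen. KGD1, the first subunit of the 2-oxoglutarate dehydrogenase complex, differed by -0.58 ± 0.13 (adjusted p = 0.0288), and its call was lost in 6 of the 8 fits that left out 1 array. The calls of KGD4 and COX6 were lost in all 8. KGD4, a further subunit of that complex, differed by -0.47 ± 0.11 (adjusted p = 0.0343), and COX6, a subunit of cytochrome c oxidase, by -0.35 ± 0.09 (adjusted p = 0.0462). UBR1, the ubiquitin ligase of the N-end rule, differed by -0.55 ± 0.11 (adjusted p = 0.00918), and UBX3, a cofactor of the ATPase Cdc48, by -0.57 ± 0.12 (adjusted p = 0.0248), which lost its call in 5 of those 8 fits.

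PAL2 differed by -0.58 ± 0.10 (adjusted p = 0.0041), the ADP-ribose hydrolase gene YSA1 by -0.53 ± 0.09 (adjusted p = 0.00607), and the region between PRM2 and the transcription factor gene CST6 by -0.62 ± 0.12 (adjusted p = 0.0109), and each kept its call in all 8 fits. ATG38, a subunit of the lipid kinase complex of autophagy, differed by -0.55 ± 0.13 (adjusted p = 0.0394). Its Spt3 arrays stood at -0.88, -0.07, -0.10 and -0.11, with replicate B alone far below the others, and without that array the difference was -0.34 and not called, as in 4 of the 7 other fits. RRT8 and the ribosomal protein gene RPS27A, with differences of -0.61 and -0.60, lost their calls in each of the 8 fits that left out 1 array. A second region of RPS27A had a difference of 0.0031.

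The proteasome, general stress, respiration and chaperone lists had median differences below 0, and few of their regions were called. For comparison, 0.845% of all regions were called with Spt3 higher and 0.501% with Spt3 lower. At an unadjusted p under 0.05, 6.66% of all regions had Spt3 higher and 6.27% had Spt3 lower. Of all regions on all 8 arrays, 6.45% had every Spt3 array below every TBP array and 5.84% the reverse. Of 34 regions of proteasome genes 0 were called by limma, with 1 higher and 6 lower at an unadjusted p under 0.05 (7 of the 33 on all 8 arrays had every Spt3 array below every TBP array, and 1 the reverse), with a median difference of -0.17 (-0.056 if the ratios had been turned before deposit). The difference was below 0 at 30 of the 34. TBP was called higher at 22 and Spt3 at 5, where 8.35% and 3.88% of all regions were called higher. The effect was above 0 at 32 of the 34 for TBP and at 30 for Spt3, with medians of 0.39 and 0.18. General stress genes had 1 of 46 called in each direction, and 1 higher and 15 lower at an unadjusted p under 0.05. The list's median difference was -0.17 (-0.0067 if turned before deposit). The region with Spt3 higher was that of TMA10, which also borders a tRNA gene, and the other was the region between PNC1, a nicotinamidase, and VIR1. They lost their calls in 6 and 5 of the 8 fits that left out 1 array. Respiration and TCA cycle genes had 0 of 47 called with Spt3 higher, 2 with Spt3 lower (KGD1 and COX6), 1 higher and 7 lower at an unadjusted p under 0.05, and a median difference of -0.17 (-0.023 if turned before deposit).

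Of 35 regions of heat shock chaperone genes 0 were called by limma. At an unadjusted p under 0.05, 1 was higher and 7 lower, beside 6.66% and 6.27% of all regions. The median difference was -0.11 (0.01 if the ratios had been turned before deposit), with median effects of 0.17 for Spt3 and 0.28 for TBP. Since the direction of the ChIP values was chosen on TBP at chaperone promoters, the sign of the TBP median here is no evidence. HSP104, the disaggregase, had Spt3 at 0.42, 0.43, 0.21 and 0.40, and TBP at 1.41, 1.04, 0.81 and 0.68. The groups did not overlap, yet the difference of -0.62 ± 0.23 did not pass (adjusted p = 0.218). The region of the Hsp90 gene HSP82 differed by -0.59 ± 0.17 (adjusted p = 0.101), SSE2, an Hsp110, by -0.84 ± 0.27 (adjusted p = 0.133), and SSA4, a heat-induced Hsp70, by -0.38 ± 0.23 (adjusted p = 0.548). The small heat shock gene HSP26 was at -0.12 ± 0.10 (adjusted p = 0.742).

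At some stress genes both factors were called higher and their effects lay close together. UBI4, the polyubiquitin gene, had Spt3 at 0.76, 1.00, 0.91 and 0.98, and TBP at 1.49, 1.30, 0.29 and 1.11. The ranges overlapped, and the difference was -0.14 ± 0.21 (adjusted p = 0.896). HOR7, a gene of hyperosmotic and heat response, had effects of 0.92 for Spt3 and 0.96 for TBP and a difference of -0.04 ± 0.25 (adjusted p = 0.983). The region between ADH1, the main alcohol dehydrogenase, and PHM7 had effects of 0.63 and 0.49 and a difference of 0.14 ± 0.17 (adjusted p = 0.836). These p-values do not show that the factors changed alike. YPR1, a reductase gene, had both effects called higher, at 0.73 and 1.32, and a difference of -0.60 ± 0.20 (adjusted p = 0.158). ALD3, a stress-induced aldehyde dehydrogenase, was at 0.11 for Spt3 and 0.80 for TBP, with a difference of -0.70 ± 0.20 (adjusted p = 0.0946).

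Ribosomal protein genes stood apart from ribosome biogenesis genes in these values. Of 129 regions, 0 were called with Spt3 higher and 1 with Spt3 lower (RPS27A), beside 0.845% and 0.501% of all regions. The median difference was -0.05. The list's median per array was -0.13, -0.20, -0.14 and -0.15 for Spt3, and -0.25, -0.36, 0.16 and 0.04 for TBP. The Spt3 arrays lay together, while TBP replicates A and B lay below them and C and D above. Their RNA, read only at regions of 1 promoter, was lower, with a median change of -1.88, near that of the ribosome biogenesis genes. Leaving out any 1 array, or under the other settings with centring and turned values, the list's median difference lay between -0.14 and 0.03, against 0.36 to 0.52 for ribosome biogenesis.

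**Figure D3:**
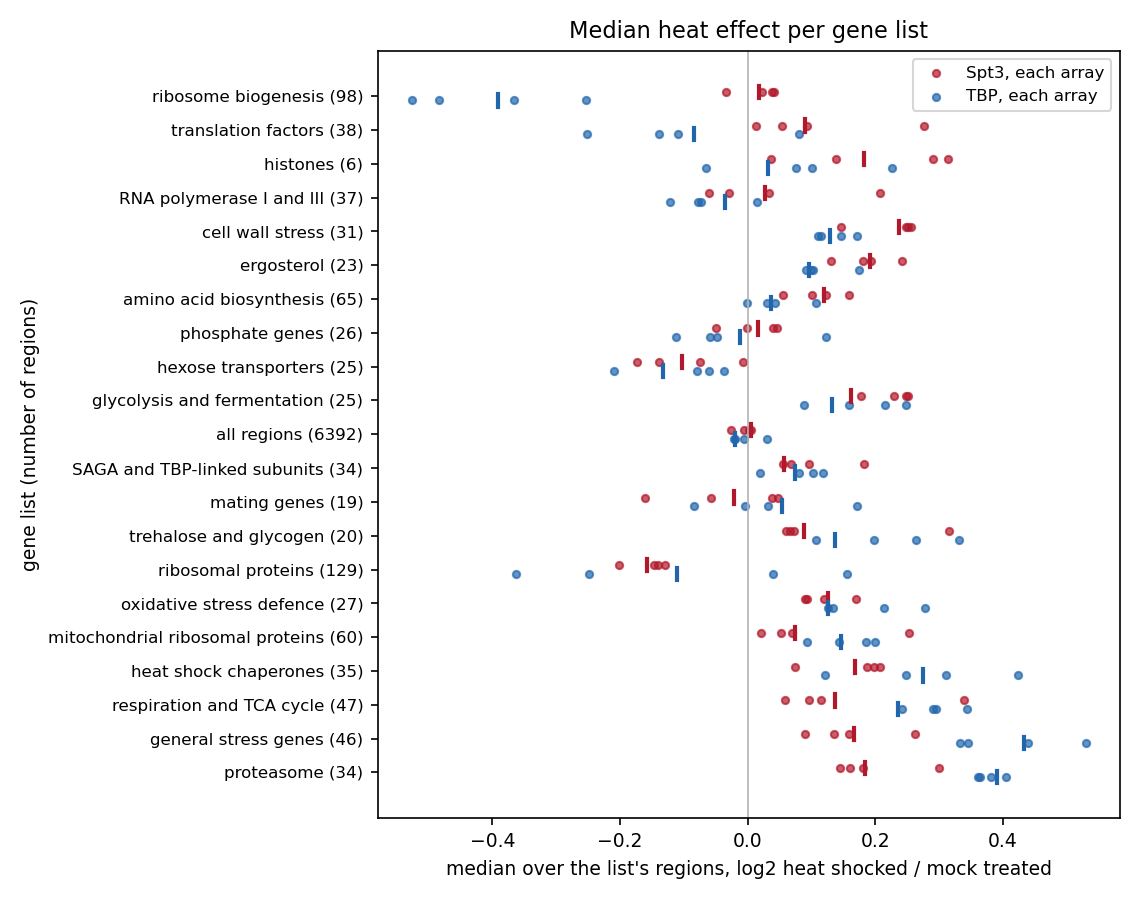
Median log2 heat effect over the regions of each gene list, for each Spt3 array (red points) and each TBP array (blue points); vertical bars are the medians of the fitted effects, and the number of regions stands in parentheses. The groups of points lie farthest apart at ribosome biogenesis, with medians of 0.02 for Spt3 and -0.39 for TBP, and the opposite order is seen at proteasome, with 0.18 and 0.39.

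The remaining lists had 0 regions called by limma in either direction, and medians between -0.08 and 0.10. These lists held from 19 regions (mating genes) to 65 (amino acid biosynthesis). At an unadjusted p under 0.05, each had 1 to 6 regions with Spt3 higher and 1 to 7 with Spt3 lower. Over all regions the shares were 6.66% higher and 6.27% lower. They were trehalose and glycogen, oxidative stress defence, cell wall stress, glycolysis and fermentation, hexose transporters, amino acid biosynthesis, ergosterol, genes of SAGA and TBP-linked subunits, mating genes, phosphate genes and mitochondrial ribosomal proteins. In the cell wall list the Spt3 median of 0.24 was above the TBP median of 0.13. The regions of SPT3 and of SPT15, which encodes TBP, differed by 0.28 ± 0.22 (adjusted p = 0.687) and 0.13 ± 0.17 (adjusted p = 0.863).

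By position, 31 of the 54 regions with Spt3 higher bordered 1 promoter, 17 lay between divergent genes and held 2, 4 lay between convergent genes and 2 had no gene name. Of the 32 with Spt3 lower, 19 bordered 1 promoter, 12 were divergent, 0 were convergent and 1 had no name. The share called in either direction was 1.86% of 2691 regions of 1 promoter, 1.98% of 1466 divergent regions and 0.299% of 1340 convergent regions, beside 1.35% of all. Next to tRNA genes, where TBP also serves RNA polymerase III, 5 of 471 were called with Spt3 higher and 0 with Spt3 lower, and the median difference was 0.06. The median per TBP array there was 0.03, -0.28, 0.22 and -0.18, so that the 2 channel orders lay on different sides.

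RNA changes come from separate arrays of the strain labelled Null, of which 2 compared heat shocked with mock treated cells, and were read for regions that border 1 promoter. In the direction taken for the ChIP values, the difference ran against the RNA change. Where RNA was at least 2-fold lower, 23 of 299 regions were called with Spt3 higher and 1 with Spt3 lower (RPS27A), and the median difference was 0.23. Where RNA was at least 2-fold higher, 1 of 243 was called with Spt3 higher (YNL134C) and 5 with Spt3 lower, and the median was -0.11. Where RNA stayed within 2-fold, 6 and 13 of 2017 were called, with a median of -0.03. Over all 2691 regions of 1 promoter, 31 were called with Spt3 higher and 19 with Spt3 lower, with a median of -0.02.

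The same is seen from each factor. At 78 regions whose RNA was at least 4-fold lower, the median effect was -0.30 for TBP and -0.06 for Spt3. At 73 regions whose RNA was at least 4-fold higher, it was 0.29 for TBP and 0.13 for Spt3. Across 2559 regions the rank correlation with RNA was 0.44 for TBP, 0.112 for Spt3 and -0.344 for the difference. The difference and the TBP effect share the TBP arrays, and regions are not independent replicates. The placement of regions beside genes was chosen on the relation of TBP to RNA. The direction of the ChIP values was chosen on TBP running with RNA at chaperone promoters, so the signs of these relations to RNA are no evidence. All of these values are descriptions.

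**Figure D4:**
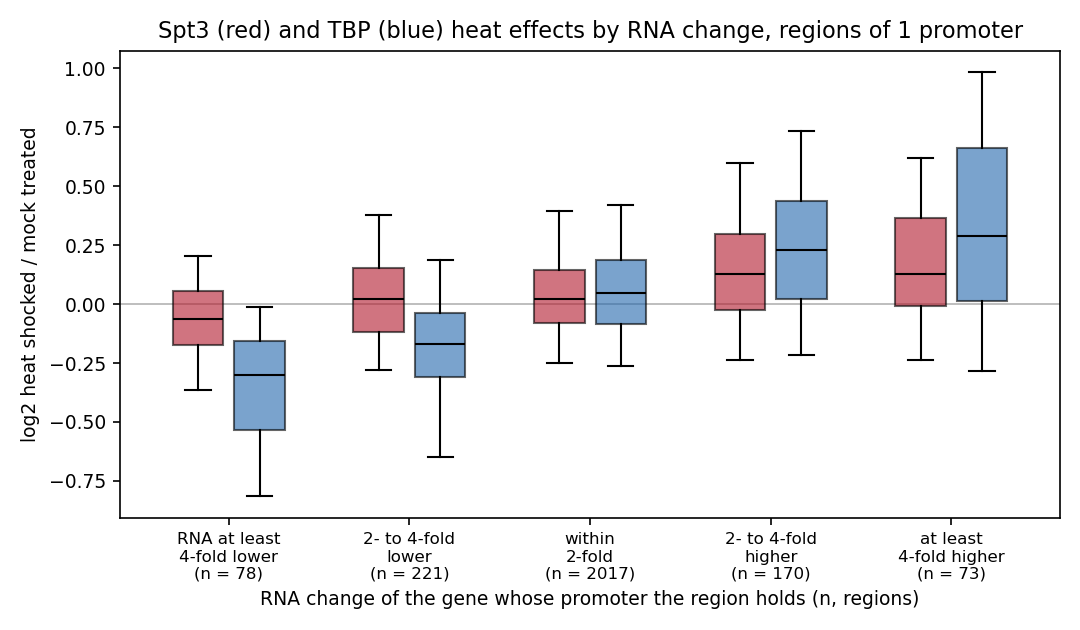
Log2 heat effects of Spt3 (red) and TBP (blue) for regions of 1 promoter, grouped by the RNA change of the gene; boxes span the quartiles, lines inside are medians and whiskers reach the 5th and 95th percentiles. The TBP medians run from -0.30 to 0.29 and the Spt3 medians from -0.06 to 0.13.

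Across all 6392 regions the effects of Spt3 and TBP correlated at a Pearson r of 0.267 and a Spearman rho of 0.378, as a description over regions of arrays processed alike. At the 534 regions called higher for TBP, the median Spt3 effect was 0.17, and Spt3 was called higher at 101. At the 256 called lower for TBP, it was -0.08, with Spt3 called lower at 26 and higher at 3. Over all regions 3.88% were called higher and 1.77% lower for Spt3.

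The TAF1 and Null arrays give the setting of these values. Spt3 minus TAF1, which uses the same Spt3 arrays, was called in the same direction at 43 of the 54 and at 26 of the 32 regions, where 2.07% of all regions were called with Spt3 higher than TAF1 and 1.99% with Spt3 lower. At the 54 the median effect was -0.51 for TAF1 beside -0.55 for TBP, and at the 32 it was 0.47 beside 0.43. TAF1 minus TBP was called at 0 of the 86, and at 1 of all regions (0.0156%), between HXK1 and IRC7, with 304 (4.76%) at an unadjusted p under 0.05.

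In the strain labelled Null the median effect was 0.15 over the 54 regions and -0.02 over the 32. TBP minus Null was called at 35 of the 54 and at 24 of the 32, where 445 of all regions were called (6.96%). The regions were selected on Spt3 minus TBP, mostly with the larger effect in TBP, so the shares against Null are descriptions. Spt3 minus Null was called at 2 of the 54 and at 0 of the 32, where 61 of all regions were called (0.954%). At most of these regions the Spt3 effect was therefore not separated from the Null effect, and whether Spt3 was bound there before the heat shock cannot be read from ratios of heat over mock.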

How the data were processed

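Arrays were scanned with a GenePix 4000A and GenePix Pro 4.0, per the labels; no source used here names the background correction, normalization or spot filters. The authors deposited log2 ratios of both channels, uncentred. Each of 24 ChIP arrays was turned by its labelled heat shocked channel, the 4 input arrays (HA-TAF1 over HA-Spt3 input) by their TAF1 channel, and all 28 were centred on their medians. Regions with at least 3 of 4 values in every group were kept (6392 of 7047). Limma 3.58.1 in R 4.3.3 fitted all 28 arrays, region by region. The model held a term for each of the 7 groups (heat over mock in 6, TAF1 over Spt3 input in the other) and a shared channel term. Residual degrees of freedom varied with the values missing at a region. Two-sided moderated tests of contrasts were Benjamini-Hochberg adjusted and called under 0.05. The 4 RNA arrays, 2 of heat against mock and 2 of mock against mock, were fitted with a heat and a channel term. Array values in the text have the channel effect taken off. The number of arrays limits the precision.

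Regions were placed to the right of the gene naming the probe, and neighbours came from a RefSeq table of 6477 genes (assembly R64). Array spots carry no build in the sources used here, so no coordinates or sequences are given. Named regions are the 12 largest called differences in each direction with a value on all 8 arrays, the extremes of each of 20 gene lists, and 27 fixed genes, of which SSA1 and TSL1 had no tested region. Regions named beside these were chosen after their values were seen. The comparison, lists, placement and direction were chosen with earlier results of these data known. Alternatives were the arrays in the fit, channel effect, turning, centring, scaling, filters, weights, variance prior, replicate block and leaving out each array. Replicate letters were not taken to pair Spt3 with TBP arrays.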

Additional observations from a re-analysis of the deposited data

Results flagged for a closer look

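At 3 regions the Spt3 and TBP effects were called in opposite directions and their difference was itself called by limma. The differences were 0.98 at ARG80, 0.99 at YNL134C and 1.14 at PAC10-YGR079W.

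At named regions a single array sometimes stood far from the other 3 of its group by Dixon's criterion. Chance flags about 1 in 20 groups, and 177 groups of 4 arrays at 89 named regions were looked at, of which 20 had such an array. In 14 of the 20 it was Spt3 replicate B or D. For replicate B they were 1.54 at PAC10-YGR079W, 0.23 at GCD10-NOP2, -0.88 at ATG38, 0.66 at FMP45, -0.33 at 1 region of CYC3-CDC19, 0.79 at ERG25, -0.70 at NOG2, -2.98 at 1 region of GAL10-GAL1 and 0.17 at 1 region of PHO84-GTR1. For replicate D they were 1.76 at MAK16, 0.55 at TYW1, 0.14 at PAL2, 0.21 at HSP104 and -0.20 at 1 region of PDC6-CTT1. Replicate C gave 1.96 at RPL21B, -4.10 at ACT1 and -0.0336 at SCC4-SPT15. Of the TBP arrays, replicate D stood apart at YPR1 with 1.13, replicate A at the other region of PDC6-CTT1 with 0.73, and replicate C at the same region of PHO84-GTR1 with 0.22. Replicate B had the widest interquartile range of the Spt3 arrays, 0.611 beside 0.261 to 0.303 for the others.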

How the results depend on the processing

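All 86 regions, or all of them that were tested, kept their sign in every setting but 1, while the number called moved widely. Counts below are all calls, then Spt3 higher, then Spt3 lower, beside 86, 54 and 32. They were 25, 17 and 8 with only the 8 Spt3 and TBP arrays, 53, 35 and 18 with no channel effect, 173, 111 and 62 with arrays scaled to equal spread, and 1130, 539 and 591 with array weights. With limma, averaging pairs of opposite channel order gave 0, 0 and 0 (711 at an unadjusted p under 0.05), and no centring gave 0, 0 and 0 (82 unadjusted). Without centring the median of all regions was -0.37 and that over ribosome biogenesis genes 0.08. Leaving out 1 of the 8 arrays gave 24 to 96 in all, 19 to 65 with Spt3 higher and 5 to 31 with Spt3 lower, with 24 without TBP B, 29 without Spt3 E, 36 without TBP A, 36 without TBP D, 46 without Spt3 C and 49 without Spt3 D. In all, 21 of the 86 regions, and 13 of the 24 largest differences, stayed called in all 8 of those fits. A block for the replicate letter gave 46, 30 and 16 over 28 arrays, and 1, 1 and 0 over the 6 arrays with letters B to D. Deviations of same-letter Spt3 and TBP arrays from their fitted values correlated at -0.181, -0.0767 and -0.0297. These values cannot tell whether arrays of a letter shared a culture or a batch, which the labels do not say. Chosen after the data were seen, leaving out the 4 Null arrays gave 188, 119 and 69, and leaving out the Null arrays A and B, the wider ones, gave 209, 126 and 83. If the ratios had been turned before deposit, 2, 0 and 2 were called and 31 of the 86 kept their sign. The difference then was -0.52 at NSA2-LCP5, -0.45 at MAK16, -0.22 at ATC1, -0.43 at PAC10-YGR079W, -0.24 at RNT1, -0.0703 at GCD10-NOP2, -0.34 at DBP8, -0.24 at ARG80, -0.12 at NCS6, -0.21 at TYW1, -0.32 at UPA2, -0.0617 at TMA10, -0.0756 at RPC25-LTV1, 0.0268 at FBP26, 0.0490 at YJR096W, 0.0899 at UBX3, 0.0305 at UBR1 and 0.31 at ATG38. The list median for ribosome biogenesis was then -0.06. The cause of these moves was not tested. A comparison of TATA motifs was not run, since no sequences were used here.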

Other observations

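Regions where both factors were called higher also held genes beyond the stress lists, named here after their values were seen. ZWF1, the first enzyme of the pentose phosphate pathway, had effects of 0.99 for Spt3 and 0.88 for TBP. The glycolytic gene TDH3 had 0.90 and 0.64, the branched-chain aminotransferase gene BAT2 had 0.85 and 0.60, and the lactate dehydrogenase gene DLD3 had 0.84 and 0.58. In each the Spt3 effect was the larger in size, but the differences did not pass limma's threshold (adjusted p = 0.896, 0.756, 0.502 and 0.589).

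Among 168 regions within the 5 genes nearest a chromosome end, the median effects were -0.14 for Spt3 and -0.09 for TBP, with a median difference of -0.04.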
